A study of Caenorhabditis elegans with 2 samples.

Results

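The genes described here are the initiation and elongation factors of cytosolic translation in the worm Caenorhabditis elegans, examined as possible targets of the transcription factor SCRT-1. They were chosen by gene symbol, under a rule set with earlier results of these data known. The rule takes every protein-coding gene of the Ensembl annotation whose name starts with eif-, eef-, ife-, ifg- or iff-. This gave 39 of 19973 protein-coding genes on the 6 nuclear chromosomes, and all 39 symbols were also found in RefSeq. Binding had been mapped by chromatin immunoprecipitation and sequencing (ChIP-seq) with an antibody against GFP, in whole early embryos 2 h old that were collected by bleaching.

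All embryos were of strain OP802, which carries the transgene wgIs802, a tagged copy of scrt-1 with TY1, EGFP and 3xFLAG, together with a working copy of unc-119 in an unc-119 (tm4063) mutant background. The labels list no change at the native scrt-1 gene, so the map describes the tagged protein made from an inserted copy. There was 1 group of 2 biological replicates and no second condition. The control library named in the labels was not analysed here. The files hold peaks only, so neither the stage nor the expression of any gene could be checked, and the sequencing depth of each library is unknown.

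SCRT-1 belongs to the Scratch branch of the Snail family of zinc finger proteins, whose relatives recognise the E-box CAGGTG. Translation starts when eIF2 carries the initiator tRNA to the small ribosomal subunit, with eIF2B recharging eIF2 with GTP, eIF3 holding the complex together and the eIF4 proteins bringing in the capped mRNA. During elongation eEF1A delivers each aminoacyl-tRNA, the eEF1B subunits recharge eEF1A, eEF2 moves the ribosome along, and eIF5A helps it past slow peptide bonds. Genes for these proteins are active in almost every dividing cell, and in worms many mRNAs are trans-spliced, so an annotated start can lie downstream of the true start of transcription.

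Reproducible SCRT-1 sites lay in the promoter windows of 5 translation factor genes: eif-3.C and eif-3.E of the eIF3 scaffold, iff-2 for eIF5A, eef-1G of the elongation factor complex, and eif-2Bgamma of the exchange factor eIF2B. A site is a peak of the conservative list, which holds 1211 peaks that ranked alike in both replicates. The promoter window runs from 1000 bp upstream to 200 bp downstream of any annotated start, and a gene was counted when a peak summit fell inside it. The 5 genes are 12.8% of the 39 (exact 95% interval 4.3 to 27.4), where 2.99% of all protein-coding genes had a site. The 5 sites are distinct peaks, so no site was counted for more than 1 member. Promoter windows covered a mean of 1446 bp per member and 1459 bp per protein-coding gene, with a mean of 1.72 annotated starts against 1.49. No test was made of the share, and the interval treats genes as independent and covers counting error only.

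The sequence under the summit is shown for 4 of the 6 member peaks with an irreproducible discovery rate (IDR) of 0.05 or lower, to show what the summit lies on: a promoter, a first exon or a neighbouring RNA gene. The IDR works like a false discovery rate for ranks, so a low value marks a peak that both replicates place high, and the thresholded lists stop just under 0.01. Each stretch covers 50 bp on either side of the summit in WBcel235 (the ce11 assembly of the files), read from RefSeq on the strand of the member gene. Capitals mark bases in an annotated exon of the member, or of sup-39 in the case of eif-2Bgamma.
iff-2: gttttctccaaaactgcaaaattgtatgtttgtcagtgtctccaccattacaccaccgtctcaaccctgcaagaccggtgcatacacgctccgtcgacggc
eef-1G: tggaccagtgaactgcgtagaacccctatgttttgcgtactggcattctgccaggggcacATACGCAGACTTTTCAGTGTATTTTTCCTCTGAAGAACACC
eif-2Bgamma: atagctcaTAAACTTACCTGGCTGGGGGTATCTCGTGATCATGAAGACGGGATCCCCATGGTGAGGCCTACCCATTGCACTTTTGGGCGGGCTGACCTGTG
eif-3.B: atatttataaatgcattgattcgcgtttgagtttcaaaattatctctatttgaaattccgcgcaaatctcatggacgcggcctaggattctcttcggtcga
The iff-2 stretch is chrII:8561444-8561544 on the minus strand and the eef-1G stretch chrV:10965659-10965759 on the plus strand. The eif-2Bgamma stretch is chrII:6968466-6968566 on the minus strand and the eif-3.B stretch chrII:14795091-14795191 on the plus strand. Of the 101 bases at eef-1G, 41 belong to the annotated transcript, while the iff-2 and eif-3.B stretches lie wholly upstream of theirs. At eif-2Bgamma 93 of 101 bases belong to sup-39, which encodes a small nuclear RNA of the U1 type, the RNA that pairs with the start of introns.

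None of the 5 sites held the Scratch E-box CAGGTG within 50 bp of its summit, on either strand. The word occurred in 3.47% of all conservative sites, in 2.94% of the 58345 candidates with an IDR above 0.5, and in 3.07% of the windows of the same length that end at the most upstream annotated start of each protein-coding gene. A further 5 words were looked for on both strands. CAAGTG was found at eif-3.C only, GCGCGC at eif-3.E only and GGGCGG at eif-2Bgamma only, and GAGAGA and GTTCGA at none of the 5. Among all conservative sites these 5 words occurred in 7.1%, 7.93%, 9.91%, 13.7% and 15.3%. Among windows of that length at gene starts the shares were 3.96%, 1.1%, 3.48%, 8.8% and 2.99%. A match is a description of the letters, and 5 sites are too few to compare shares.

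The base composition of the 5 sites lay in the range usual for the list. GC content within 50 bp of the summit was 55.4% at eif-3.C, 54.5% at eif-2Bgamma, 50.5% at eif-3.E and at iff-2, and 48.5% at eef-1G. The median was 51.5% over all conservative sites (quartiles 46.5 and 56.4) and 38.6% over candidates with an IDR above 0.5. At eif-3.B, whose candidate missed the conservative list, GC content was 38.6%. All 72 stretches of 30 bases in the window occurred once in the genome at eif-3.C, eif-3.E, iff-2, eef-1G and eif-3.B, whereas at eif-2Bgamma 51 of 72 did.

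The strongest member site belonged to eif-3.C, which encodes a core subunit of eIF3. Its peak on chromosome I runs from 9979740 to 9980055, and its summit lay 236 bp upstream of the annotated start, in the DNA between the end of sys-1, a beta-catenin gene read in the same direction, and eif-3.C. The signal, a value of the authors' peak caller whose scale is not stated and which ranks peaks within a list, was 206 in the conservative list, rank 171 of 1211. Replicate values are those of the paired peaks in the ranked list, whose columns carry no header and were tied to replicates by identical peaks in each replicate's own list. The signal was 140 in replicate 1, higher than at 99.8% of the 101059 ranked candidates, and 65.8 in replicate 2, higher than at 99.6%. The IDR was 0.000363 and the replicate summits lay 13 bp apart. It was the only member site that overlapped a thresholded peak of both replicates taken alone.

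The eif-3.E site, at another subunit of eIF3, was weaker but as sharply placed. It runs from 10642321 to 10642636 on chromosome I, with its summit 198 bp upstream of eif-3.E and 550 bp upstream of the divergent gene B0511.17; the map does not tell the promoters apart. The signal was 83.7 (rank 797), with 50.8 in replicate 1 and 36.6 in replicate 2. Both replicate values lay in the upper tail, above 99% and 98.5% of candidates, with summits 5 bp apart and an IDR of 0.00271. Neither replicate alone gave a thresholded peak there.

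The remaining eIF3 genes formed a graded series below the conservative list. The eif-3.B candidate, at a core subunit gene, was the closest below the threshold, with an IDR of 0.037 against 0.00861 at eef-1G, the weakest member inside the list. Its signal was 54.2, with 29.8 in replicate 1 and 35.3 in replicate 2, and its summit lay 263 bp upstream. In the ranked list of replicate 2 alone this eif-3.B peak had an IDR of 0.81. The most reproducible peak of replicate 1 alone was another one, 16 bp downstream, with a signal of 8.7 and an IDR of 0.679. At eif-3.I, a subunit whose relative binds that of eif-3.B in yeast, the IDR was 0.0568 with signals of 30.4 and 27.5, but the summit lay inside the gene, 503 bp upstream of an internal start. At eif-3.D, the signal of 73.6 exceeded that of eef-1G, yet the replicates differed, with 51 in replicate 1 and 14.1 in replicate 2 and an IDR of 0.384. The candidates of eif-3.H, eif-3.K and eif-3.G had lowest IDRs of 0.128, 0.218 and 0.443, those of eif-3.F and eif-3.J stood at 0.763, the ceiling of the list, and eif-3.L had no candidate in its windows.

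**Figure D1:**
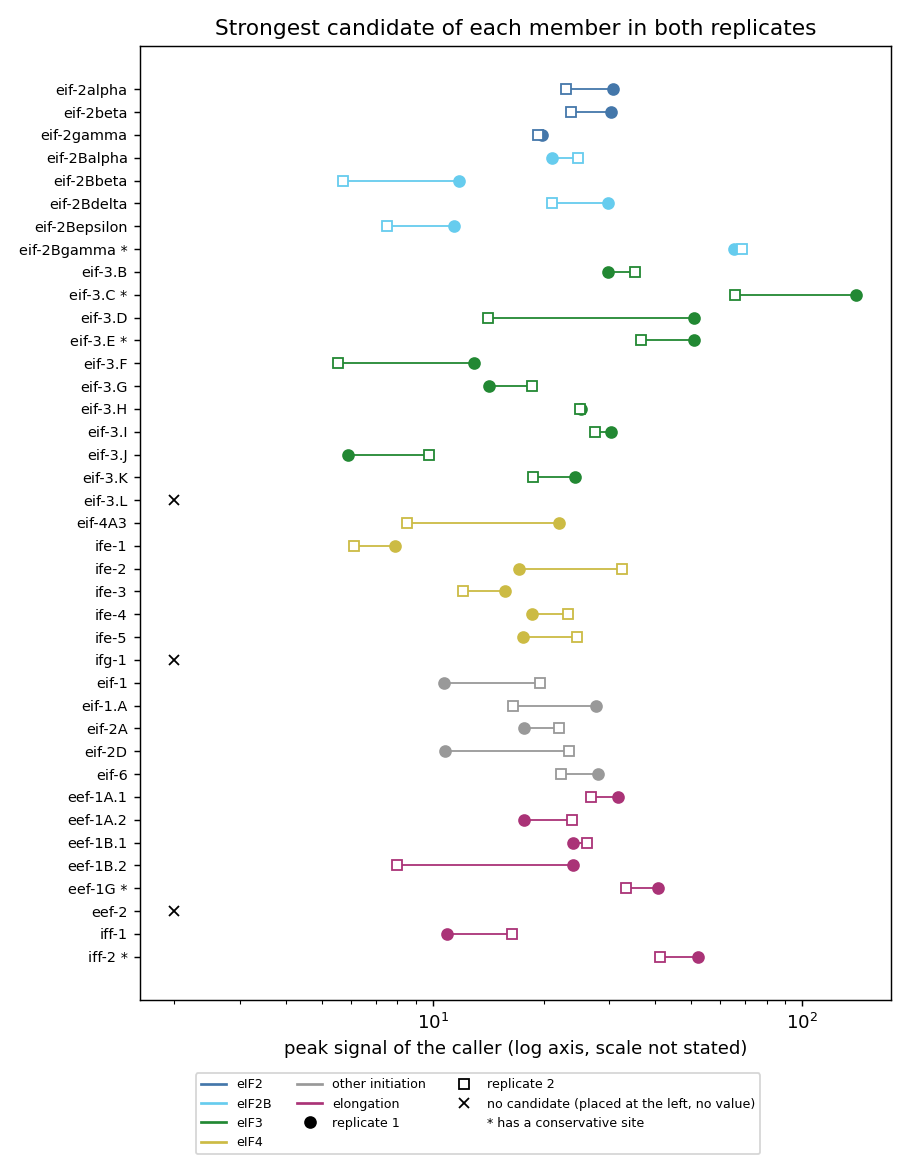
Signal of the strongest ranked candidate in the promoter window of each of the 39 genes, on a log axis, with replicate 1 as filled circles, replicate 2 as open squares and a line joining them. The 5 genes marked with a star, which have a conservative site, exceed 40 in replicate 1 and 33 in replicate 2, and eif-3.D shows a similar height in replicate 1 with 14.1 in replicate 2.

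Among the genes of eIF2 and its exchange factor, eif-2Bgamma, a subunit that acts with epsilon in the exchange reaction, was the one with a conservative site. It had the second highest signal, 140 (rank 322), with closely matching values of 65.4 and 68.5 in replicates 1 and 2 and an IDR of 0.000783. Its summit, at the peak running from 6968358 to 6968673 on chromosome II, lay 868 bp upstream of eif-2Bgamma, inside an intron of the neighbouring gene C15F1.5 and 42 bp into the snRNA gene sup-39. The short gene mir-1831, also annotated as an snRNA, starts 35 bp away. The eif-2Bgamma site was the only one of the 77 member candidates with a summit 100 bp or less from where a small RNA gene (tRNA, snRNA, snoRNA or rRNA) starts. Most of those candidates are not conservative sites. Among conservative sites, 1 of the 5 at members lay so close, and 317 of all 1211 did (26.2%), too few member sites to compare. Leaving such sites out, 4 of 39 members had a site (10.3%, exact 95% interval 2.87 to 24.2), against 2.55% of all protein-coding genes.

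The other eIF2B and eIF2 genes had no conservative site. For eIF2B, which recharges eIF2 with GTP, 1 of 5 genes had a site. Its other genes eif-2Balpha, eif-2Bbeta, eif-2Bdelta and eif-2Bepsilon had lowest IDRs of 0.196, 0.763, 0.122 and 0.763. For eIF2 itself 0 of 3 genes had a site, which allows a share of up to 70.8% by the exact interval. Over all protein-coding genes the share was 2.99%. At eif-2beta the signals were 30.3 and 23.7 in replicates 1 and 2, with the summit 106 bp upstream and an IDR of 0.0831. At eif-2alpha they were 30.7 and 23, with an IDR of 0.0872, but that summit lay inside the gene, 51 bp upstream of an internal start, and the replicate summits were 195 bp apart. At eif-2gamma they were 19.8 and 19.2 with an IDR of 0.287.

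Among the elongation genes the iff-2 site was the clearest. iff-2 encodes eIF5A, and its paralog iff-1 serves the germline. The iff-2 peak runs from 8561336 to 8561651 on chromosome II, with a summit 127 bp upstream of iff-2 and 808 bp upstream of the divergent gene F54C9.14. The signal was 100 (rank 547), with 52.2 in replicate 1 and 41.2 in replicate 2, each above 99.1% of candidates, the replicate summits 13 bp apart and an IDR of 0.00191. iff-1 had 5 candidates in its windows, none with an IDR under 0.338.

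The eef-1G site was the weakest of the 5. eef-1G encodes the gamma subunit of the elongation factor 1 complex. The peak runs from 10965551 to 10965866 on chromosome V, 10 bp upstream of eef-1G and 170 bp upstream of the divergent gene ctf-4, so that both starts lie close to it. The signal was 59.2 (rank 1144), with 40.8 in replicate 1 and 33.3 in replicate 2, and an IDR of 0.00861. The ranked list of replicate 1 alone also held the peak with a signal of 40.8, but its most reproducible peak in the eef-1G windows was another one, 655 bp upstream, with a signal of 25.2 and an IDR of 0.517. Replicate 2 alone had one 14 bp downstream of a start, with a signal of 33.3 and an IDR of 0.228. The summits of the paired peaks were 160 bp apart, against 67 bp or less at the other 4 sites, and the site is absent from the other thresholded list of both replicates, named the optimal list in what follows.

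The other elongation genes fell below the threshold. eef-1A.1, which encodes the main carrier of aminoacyl-tRNA, had signals of 31.7 and 26.8, with the summit 413 bp upstream and an IDR of 0.0511. Its paralog eef-1A.2 reached 0.331, and the exchange factor genes eef-1B.1 and eef-1B.2 reached 0.142 and 0.54. eef-2, the translocase gene, had no candidate in the list of both replicates. Taken alone, replicate 2 had a peak 4 bp upstream of an eef-2 start with a signal of 41.4 and an IDR of 0.0465, and replicate 1 had none.

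**Figure D2:**
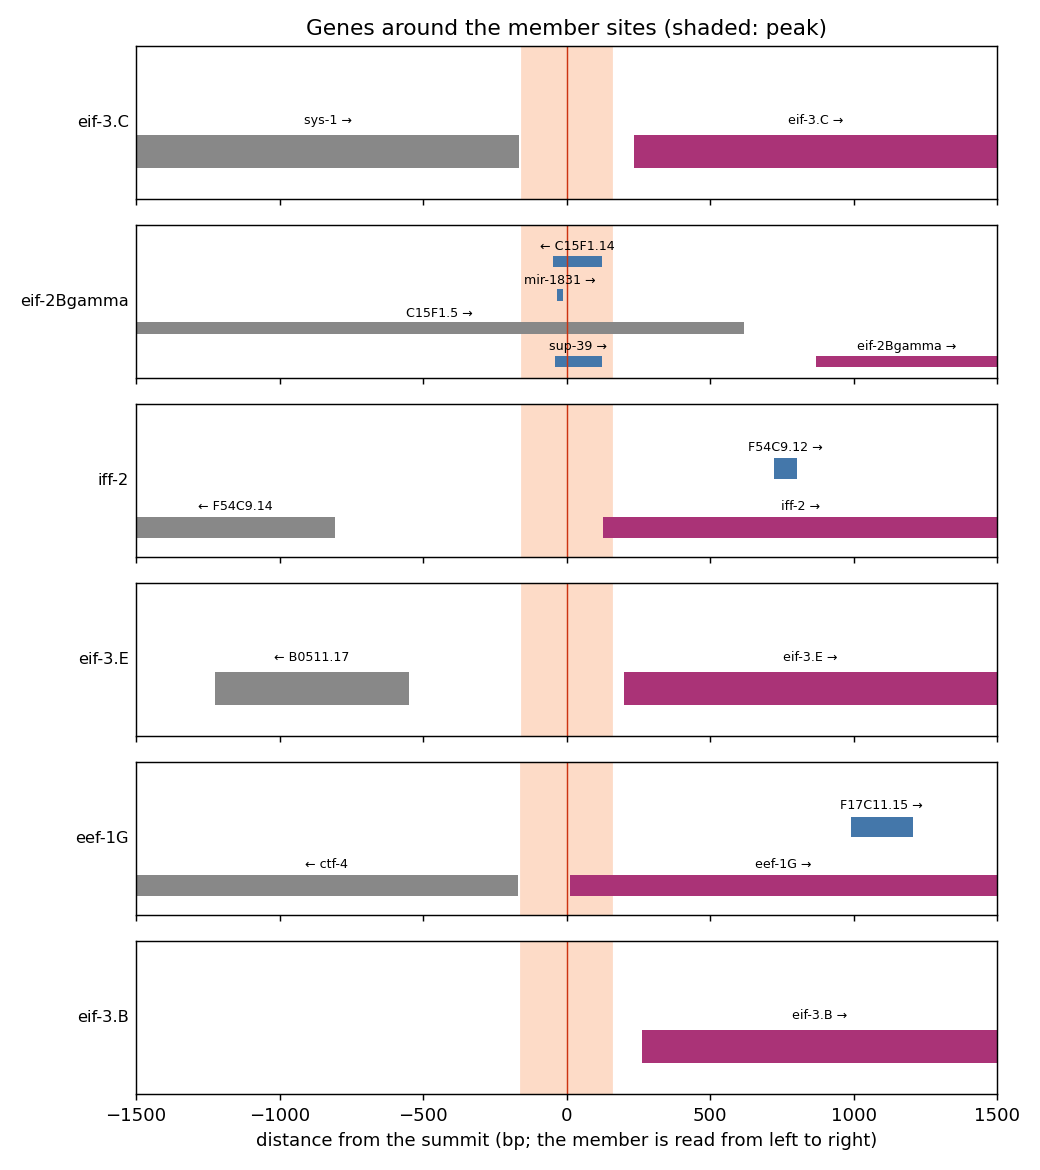
Annotated genes around the 6 member candidates with an IDR of 0.05 or lower, of which the one at eif-3.B is not a conservative site. Genes are plotted by distance in bp from the summit (red line), each map turned so that the member gene (purple) reads from left to right. Shading marks the peak, grey bars other protein-coding genes and blue bars non-coding genes (piRNA genes left out). The eif-2Bgamma summit falls on sup-39, 868 bp from the member, while the others lie within 263 bp upstream of the member.

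Cap recognition genes gave no reproducible site. These are the cap-binding proteins ife-1 to ife-5, the scaffold ifg-1, and eif-4A3, a helicase that is grouped here by name and acts in the exon junction complex. Of these 7 genes 0 had a conservative site, which allows a share of up to 41% by the exact interval. Where 2.99% of all protein-coding genes had a site, so few genes cannot show a lack of sites in this group. The strongest candidate was at ife-2, 998 bp upstream and thus at the edge of the window, with 17.1 in replicate 1, 32.6 in replicate 2 and an IDR of 0.392. Taken alone, replicate 1 had an ife-2 peak 877 bp upstream with a signal of 41 and an IDR of 0.091. Replicate 2 alone had 1 peak in that window, 36 bp downstream of the start, with a signal of 3.51. In the list of both replicates the lowest IDR of the group was 0.298, at ife-4, and ifg-1 had no candidate. The 5 other initiation genes also had 0 sites, which allows up to 52.2%, and the same limit holds for them. Their lowest IDR was 0.121 at eif-6, whose product keeps the large ribosomal subunit from joining early. It was 0.236 at eif-1.A and 0.536 at eif-1, which help to select the start codon, 0.33 at eif-2A and 0.549 at eif-2D. With groups of 3 to 11 genes the complexes could not be told apart: the share was 18.2% (2 of 11) for eIF3 and 25% (2 of 8) for elongation genes, with intervals from 2.28 to 51.8 and from 3.19 to 65.1.

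**Figure D3:**
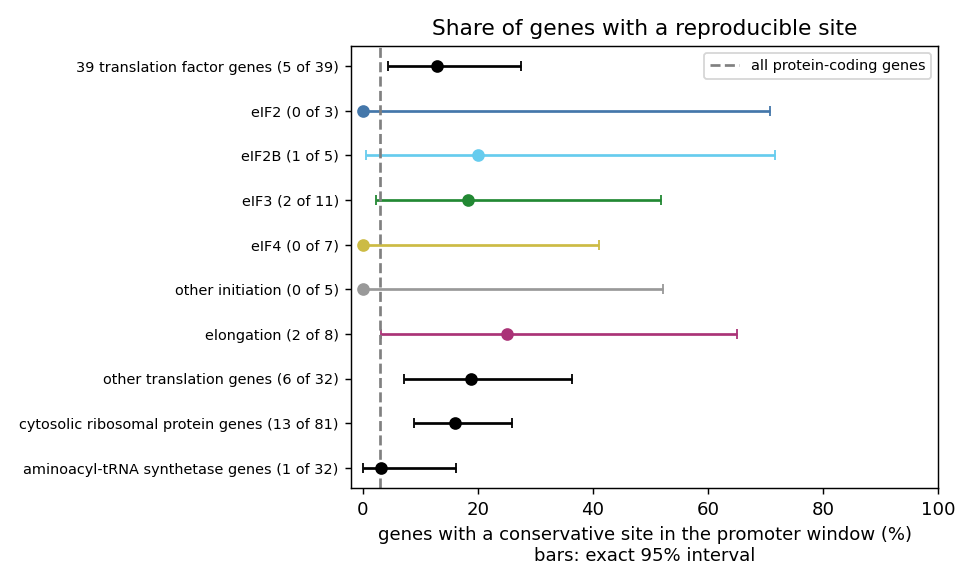
Percentage of genes in each group with a conservative site in the promoter window, with exact 95% intervals and the count in brackets. The dashed line is the 2.99% of all protein-coding genes, and the intervals of the 6 complexes overlap one another throughout.

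The 4 sites away from small RNA genes all lay within 300 bp upstream of a member. A window from 300 bp upstream to 200 bp downstream, chosen after seeing these positions, therefore held sites of 4 of 39 members (10.3%), against 1.56% of all protein-coding genes. Positions were less regular among all candidates. The strongest candidate lay within 300 bp of a start in 19 of the 36 members that had any (52.8%), against 45.8% of protein-coding genes with a candidate, a share near the background. Of the 77 candidates 59 lay upstream of the nearest start and 24 lay inside the member gene.

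**Figure D4:**
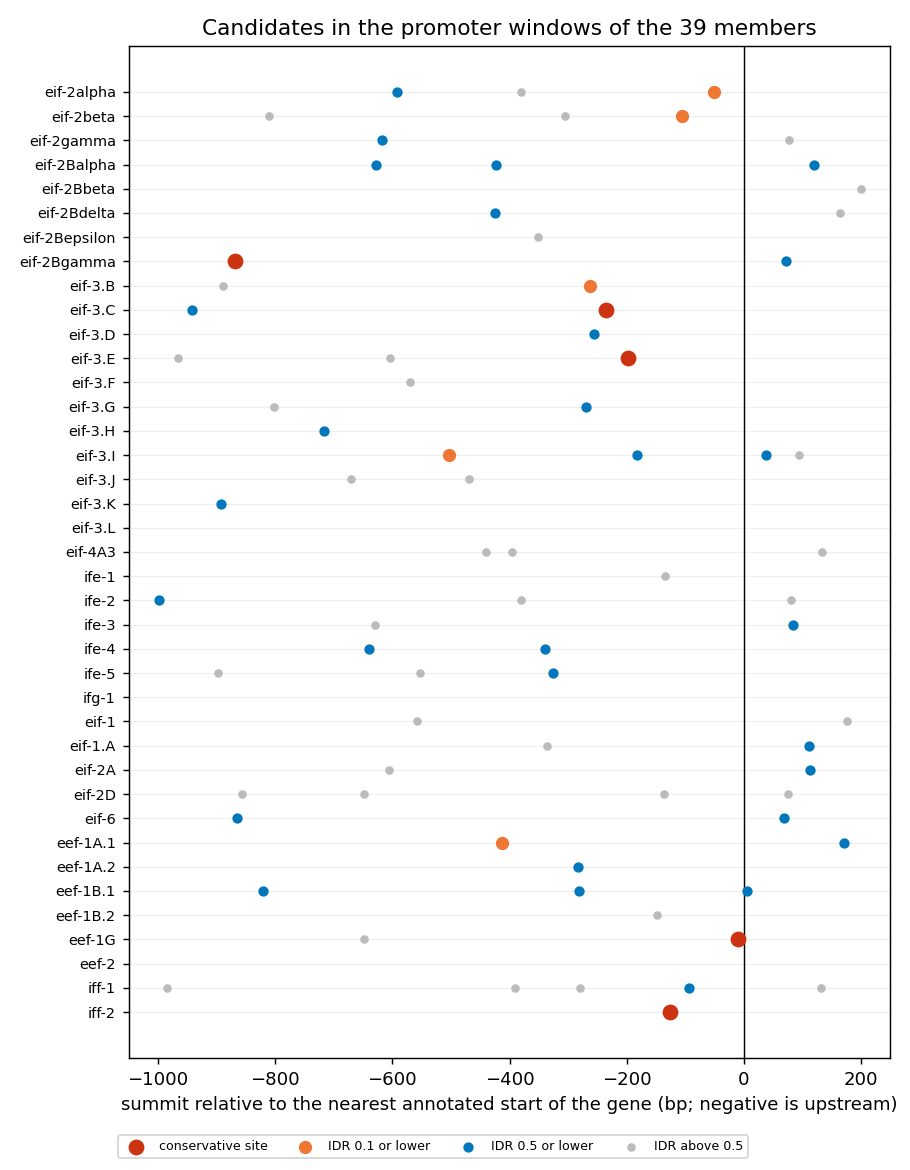
Summit positions of the 77 ranked candidates in the windows of the 39 genes, in bp from the nearest annotated start of the gene, coloured by IDR and with conservative sites in red. Of the red points 4 lie between 236 and 10 bp upstream of the start, and the one at eif-2Bgamma lies 868 bp upstream.

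Weaker candidates were also frequent at these genes. Any ranked candidate was present at 36 of 39 members (92.3%, exact 95% interval 79.1 to 98.4), against 69.4% of all protein-coding genes. Of cytosolic ribosomal protein genes 95.1% had any candidate, and 23.5% had one at an IDR of 0.05 or lower. For aminoacyl-tRNA synthetase genes these shares were 87.5% and 6.25%, so frequent candidates are not particular to the members. At an IDR of 0.5 or lower the count of members was 27 (69.2%) against 43.7% of all protein-coding genes. At 0.05 or lower it was 6 (15.4%) against 6.12%. At 0.1, a limit chosen after seeing the data, it was 10 (25.6%) against 9.31%, the additional members being eif-2alpha, eif-2beta, eif-3.I and eef-1A.1. With only the most upstream start of each gene it was 8 (20.5%) against 7.84%, since the eif-2alpha and eif-3.I candidates lie at internal starts. Among genes with any candidate, 5 of 36 members had a conservative site (13.9%), against 597 of 13864 protein-coding genes (4.31%). The median signal of the strongest candidate was 44.6 over the 36 members and 33.9 over the 13864 genes, with medians of 22.9 against 19.8 in replicate 1 and 22.6 against 14.9 in replicate 2. These values describe the groups, and their difference was not tested. Of the 77 candidates 16 share a replicate peak with another one, so candidates are not independent of each other.

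**Figure D5:**
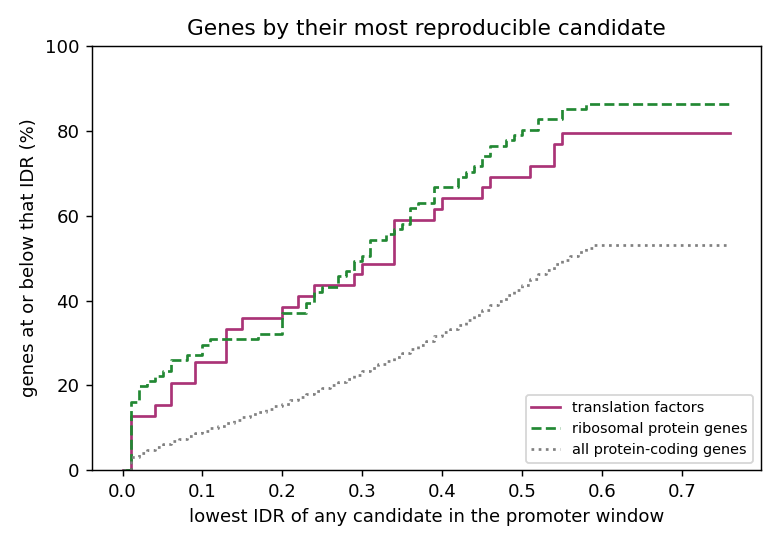
Cumulative percentage of genes whose most reproducible candidate has at most the IDR on the x axis, for the 39 translation factors (purple), 81 cytosolic ribosomal protein genes (green dashes) and all protein-coding genes (grey dots). At 0.5 the translation factors stand at 69.2% and all protein-coding genes at 43.7%, with ribosomal protein genes at 80.2%.

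Each replicate alone gave fewer of the sites. In the thresholded list of replicate 1 only eif-3.C was found, 1 of 39 members (2.56%), where 1.46% of all protein-coding genes had a peak. Replicate 2 gave eif-3.C and eif-2Bgamma, 2 of 39 (5.13%), against 1.43%. The exact 95% intervals, 0.0649 to 13.5 and 0.627 to 17.3, include those backgrounds. At eif-3.E, iff-2 and eef-1G neither replicate alone had a thresholded peak. In the ranked list of a single replicate the IDR at iff-2 was 0.0577 in replicate 1 and 0.0628 in replicate 2, and at eif-3.E it was 0.0103 and 0.102.

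The genes most like these in function gave a mixed picture. Of 81 cytosolic ribosomal protein genes 13 had a conservative site (16%, exact 95% interval 8.83 to 25.9), and of 32 aminoacyl-tRNA synthetase genes, whose products load tRNAs, 1 did (3.12%, 0.0791 to 16.2). Both intervals overlap that of the translation factors, and the differences were not tested. Over all protein-coding genes the share was 2.99%, near that of the synthetase genes. Within 300 bp upstream to 200 bp downstream the counts were 4 of 81 ribosomal protein genes (4.94%) and 1 of 32 synthetase genes (3.12%). The share of all protein-coding genes there was 1.56%. That window was chosen after seeing the member sites, so it cannot serve to compare these sets with the members.

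Other genes of translation and its control were a list of 42 names, of which 32 were found in the annotation. Where 2.99% of all protein-coding genes had a conservative site, 6 of these 32 had one (18.8%, exact 95% interval 7.21 to 36.4). The 4 with the highest signal were larp-1, mnk-1, erfa-3 and ifet-1. larp-1, a La-related RNA-binding protein gene, had 67.2 in replicate 1 and 49.6 in replicate 2, 666 bp upstream. mnk-1, the worm relative of the kinases that phosphorylate eIF4E in mammals, had 71 and 38.1, 650 bp upstream of a later annotated start, and was not counted when only the most upstream start of each gene was used. The release factor gene erfa-3 had 70.6 and 34.7, 313 bp upstream, and ifet-1, which encodes a translational repressor that binds eIF4E, had 70.2 and 29.3, 521 bp upstream. The remaining 2 of the 6, named after their values were seen, were pab-2, a poly(A)-binding protein gene, with 41.4 and 41.2 at 43 bp upstream, and abcf-2, with 49.1 and 28.8 at 933 bp upstream. Within 300 bp upstream to 200 bp downstream, the window chosen after seeing the member sites, 1 of the 32 genes had a site (3.12%), which was pab-2. The share of all protein-coding genes there was 1.56%.

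Some subunits carry names outside the symbol rule. Of these, inf-1 was in the list of other genes, cif-1 and egl-45 were added later, and all 3 were chosen for naming after the values were seen. inf-1, which encodes eIF4A, the helicase of the cap complex, had a candidate 837 bp upstream with signals of 34 and 33.4 and an IDR of 0.02, but no conservative site. cif-1, which encodes an eIF3 subunit shared with the COP9 signalosome, had one 7 bp downstream of its start with 32.7 and 28.2 and an IDR of 0.0383. egl-45, the gene for the largest eIF3 subunit, had no candidate. None of these 3 is among the 39.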

How the data were processed

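Per the labels, the deposited peak lists use the ce11 assembly. In each, the authors deposited a signal value whose scale is not stated, and the deposited ranked lists carry the −log10 of the global IDR. The sources used here name no aligner or peak caller. Depth is unknown. Thresholded and ranked lists were used for each replicate alone and for the comparison of both, with the optimal thresholded list as an alternative. The paired columns have no header. In the ranked list of both replicates, the paired peaks of the first set that could be matched by coordinates and signal (66793 of 101059) were all in the list of replicate 1, and those of the second (53497) all in that of replicate 2.

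Summits were placed on Ensembl release 115 (WBcel235) with Python 3.11.15, and exact intervals used scipy 1.17.1. The counting was tested on simulated data. No test of significance was made: there is 1 group, and genes are not replicates. Every member with a conservative site or a candidate at an IDR of 0.05 or lower is named, others by complex, and up to 4 of the other translation genes. Members, lists and limits were chosen with earlier results of these data known. Names in the list of other genes that were not in the annotation were left out.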

Additional observations from a re-analysis of the deposited data

How the results depend on the processing

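Of the 13 alternatives for the count of members with a conservative site, 5 of 39 as reported, 10 gave 4 to 6 (10.3% to 15.4%). Over those 10 the share of all protein-coding genes moved from 1.56% to 6.12%, so a steady count does not mean a steady contrast. The count of members was 2 at an IDR of 0.001 (eif-2Bgamma and eif-3.C, against 1.01% of all genes). It was 2 without replicate 1, against 1.43%, and 1 without replicate 2, against 1.46%. The optimal list gave 4, without eef-1G, against 3.1% of all genes. The shortest window planned gave 4, without eif-2Bgamma, against 2.15%. The count at an IDR of 0.05 or lower, 6 as reported, was 3 (7.69%) when either replicate was left out, with eef-2 entering in replicate 2 alone. The share of all genes was then 2.2% without replicate 1 and 2.39% without replicate 2. The count was 10 at an IDR of 0.1 or lower, against 9.31% of all genes. Under the other alternatives it was from 5 to 8, against 4.24% to 8.96% of all genes. The count with any candidate, 36 as reported, stayed between 30 and 36, where 52.3% to 77% of all genes had one. Only eif-3.C was present under each of the alternatives listed for the conservative site. No paired analysis was possible because there is 1 group. Unknown depth and the use of 2 libraries limit what the absence of a site at a member can show.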
